A study of Mus musculus with 4 samples.

Results

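The regions described here are places in the mouse genome where binding sites of all 3 subunits of the transcription factor NF-Y (NF-YA, NF-YB, NF-YC) lay together and where NF-YA was strong. They were selected by linking the sites of the 3 deposited lists whenever neighbouring site centres on a chromosome lay within 200 bp, and by keeping the regions that held at least 1 site of every subunit and an NF-YA site of 70 or more sequence tags. This gave 873 of the 5350 regions in the lists, and 873 of the 1724 regions with all 3 subunits. The other 851 regions of all 3 subunits, with fewer NF-YA tags, are called the weaker regions below, and the 873 the strong regions. No further filter was applied, so every strong region enters each count unless a smaller number is given.

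NF-Y is built from 3 different subunits, each needed for binding to DNA. NF-YB and NF-YC pair through histone-fold domains, which resemble those of core histones, and the pair then takes up NF-YA, which contacts the CCAAT box in the minor groove. CCAAT boxes are common in promoters, and in embryonic stem cells NF-Y is known to bind both near gene starts and at distal elements. A map of NF-YA therefore reads the subunit that recognises the sequence, and maps of NF-YB and NF-YC read the histone-fold pair.

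The binding of each subunit was read by ChIP-seq, the sequencing of DNA precipitated with an antibody. The cells were E14Tg2a, a male embryonic stem cell line of strain 129/Ola. No genetic change made for this study, and no treatment other than fixation, was described. The NF-YA antibody was a mouse monoclonal and those against NF-YB and NF-YC were rabbit polyclonals, so a level can be ranked within a subunit more safely than between subunits. There was 1 library for each subunit, and 1 input library of 13767116 tags served all of them as background. The NF-YA library kept 11479998 tags, the NF-YB library 13859303 and the NF-YC library 11390494. With 1 library each, no difference below has a replicate check or a p-value. Regions are not replicates, and the 95% intervals of shares (exact, Clopper-Pearson) cover counting error over regions only. Positions are on mm9, and gene models and sequence of that build were not used here, so regions are named by position.

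By the rule, NF-YA tags of the strong regions ran from 70 to 312, with a median of 112 and quartiles of 87 and 150. These values chose the regions and are given as a description. The strong regions held 19.0% of the sites in the NF-YA list and 46.2% of its site tags. They also held 31.7% of the NF-YB sites with 53.4% of that list's tags, and 32.7% of the NF-YC sites with 51.3% of its tags. The region with most NF-YA tags, on chromosome 15 from 102236411 to 102236491, had 312 NF-YA, 282 NF-YB and 176 NF-YC tags.

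The threshold cut through a continuous range. Just inside it, 18 regions had exactly 70 NF-YA tags, with NF-YB tags from 27 to 190 (median 55) and NF-YC tags from 27 to 116 (median 40). Just outside it, 14 regions had 69 NF-YA tags, with NF-YB tags from 24 to 90 (median 51.5) and NF-YC tags from 18 to 52 (median 35). On the inside lay chr3:88489551-88489671 with 70 NF-YA tags, 50 NF-YB tags and 27 NF-YC tags, and on the outside chr2:31543751-31543851 with 69, 44 and 34 tags in the same order. The medians on either side of the threshold were thus close, and the word strong marks a range of NF-YA tags rather than a separate class.

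NF-YB and NF-YC tag counts did not set the threshold, although a called site of each was required. The strong regions had a median of 84 NF-YB tags (quartiles 54 and 134, range 17 to 351), against 39 in the weaker regions (quartiles 25 and 61, range 15 to 220). They had a median of 65 NF-YC tags (quartiles 47 and 90, range 18 to 267), against 29 in the weaker regions (quartiles 21 and 41, range 14 to 176). Tags of both other subunits were therefore higher in most strong regions, with overlapping ranges. Fold, which divides tags by scaled input tags, lay closer between the groups. Its medians were 23.84 in strong against 17.63 in weaker regions for NF-YB, and 21.45 against 16.12 for NF-YC. Of the weaker regions, 94 (11.0%) reached the strong median for NF-YB and 59 (6.93%) reached it for NF-YC. Conversely, 81 strong regions (9.28%) lay below the weaker median for NF-YB and 45 (5.15%) below that for NF-YC.

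**Figure D1:**
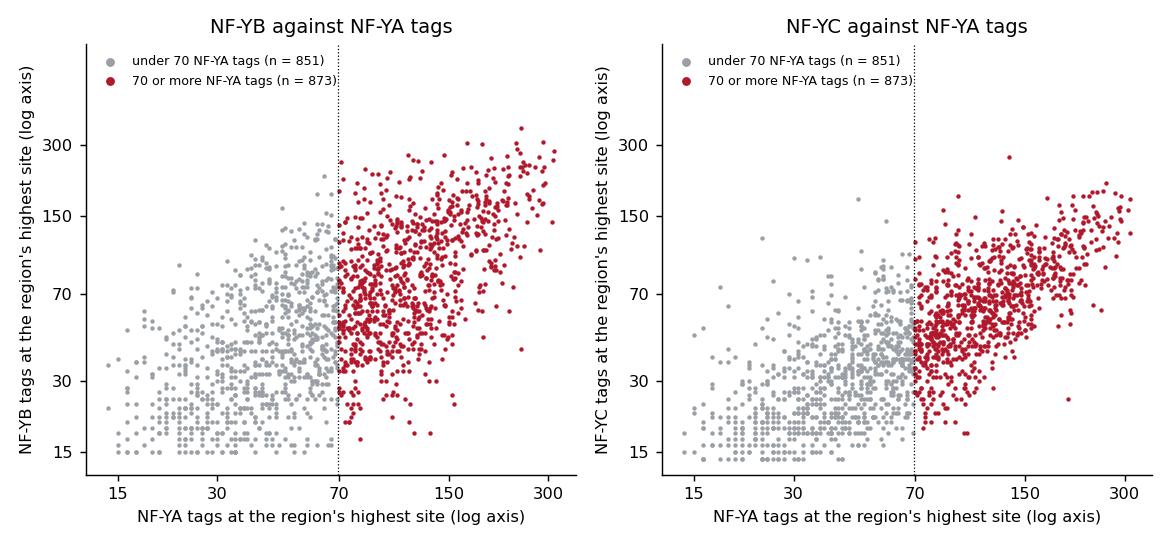
NF-YB tags (left) and NF-YC tags (right) against NF-YA tags, 1 point per region of all 3 subunits, all axes logarithmic, with a dotted line at the threshold of 70 NF-YA tags. The cloud crosses the line without a gap, and strong regions span 17 to 351 NF-YB tags and 18 to 267 NF-YC tags.

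Ranked over all 1724 regions of the 3 subunits, the upper 25% began at 95 NF-YB tags and at 69 NF-YC tags. With ties, 25.2% of the 1724 regions, which include the strong ones, reached the NF-YB limit. Of the 873 strong regions 377 did (43.2%, 95% interval 39.9 to 46.5), and of the 851 weaker regions 58 (6.82%). The NF-YC limit was reached by 25.5% of the 1724, by 393 strong regions (45.0%, 41.7 to 48.4) and by 47 weaker ones (5.52%). Both limits were reached together by 247 strong regions (28.3%, 25.3 to 31.4), against 14.6% of the 1724 and 5 of the 851 weaker regions. At the low end, 56 strong regions (6.41%) had 35 or fewer NF-YB tags, against 25.4% of the 1724. Likewise 45 (5.15%) had 28 or fewer NF-YC tags, against 26.2% of the 1724. Only 9 strong regions (1.03%) were low in both subunits, against 14.3% of the 1724. Each low range held few strong regions, so this small count does not show that NF-YB and NF-YC part at low tags.

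Within the strong regions, NF-YB and NF-YC continued to climb with NF-YA. The 128 regions of 70 to 79 NF-YA tags had medians of 53 NF-YB and 43 NF-YC tags, the 187 regions of 100 to 124 had 74 and 61, and the 90 regions of 200 to 312 had 168.5 and 123. In the highest of these classes NF-YB still ran from 41 to 351 tags and NF-YC from 25 to 207. Spearman's rho across the 873 strong regions was 0.63 between NF-YA and NF-YC tags, 0.50 between NF-YA and NF-YB, and 0.47 between NF-YB and NF-YC. These are descriptions across regions, which share the 3 libraries, the input and the local mappability of each place.

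**Figure D2:**
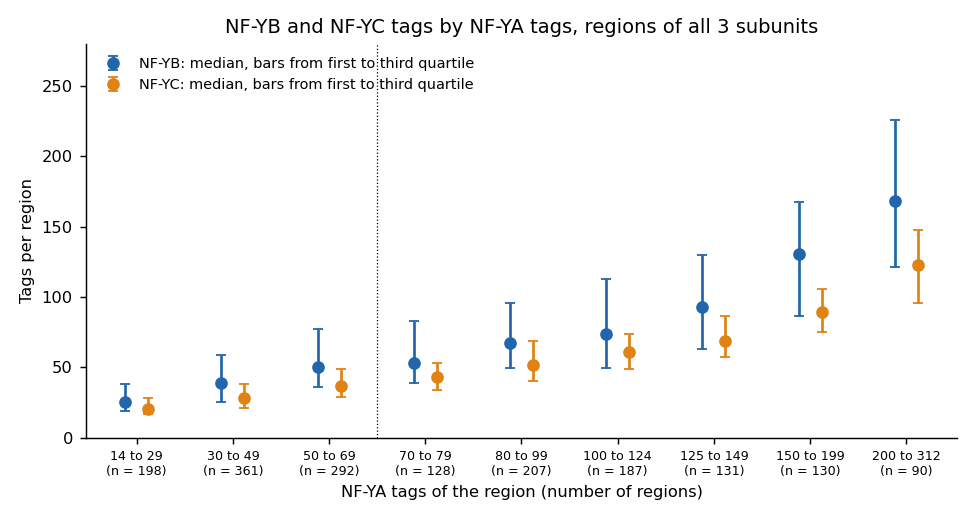
Median NF-YB (blue) and NF-YC (orange) tags per region, with bars from the first to the third quartile, for regions of all 3 subunits in 9 classes of NF-YA tags; the dotted line marks the threshold of 70. Medians climb from 25 NF-YB and 20.5 NF-YC tags in the lowest class to 168.5 and 123 in the highest.

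To set the subunits beside each other, tags were divided by the kept tags of their library, which gives a scaled level. On that scale NF-YB stood at a median of 0.60 times NF-YA in the strong regions (quartiles 0.41 and 0.83) and NF-YC at 0.55 times (quartiles 0.44 and 0.68). In the weaker regions the medians were 0.80 and 0.74. NF-YA tags enter both this ratio and the selection, so a lower ratio in the strong regions is partly set by the rule, and the ratio depends on 3 different antibodies. Within the strong regions the median NF-YB ratio stayed between 0.57 and 0.64 over the 6 classes of NF-YA tags, and the NF-YC ratio moved from 0.58 in the lowest class to 0.51 in the highest. In the weaker regions the ratios fell from 0.92 for both subunits at 14 to 29 NF-YA tags to 0.72 for NF-YB and 0.63 for NF-YC at 50 to 69, where the minimum of 14 or 15 tags for a called site weighs most on the lowest class. The spread was wider for NF-YB than for NF-YC.

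The scaled NF-YB level matched or exceeded that of NF-YA in 119 strong regions (13.6%, 11.4 to 16.1), against 24.6% of the 1724. NF-YC did so in 49 (5.61%, 4.18 to 7.35), against 15.1%, and both did so in 13, against 6.67%. As stated, the rule favours NF-YA in these counts. The ratio of NF-YB to NF-YC does not contain NF-YA tags. It is not free of the rule, as NF-YA tags went more closely with NF-YC (rho 0.63) than with NF-YB tags (0.50). Scaled NF-YC was at least 2 times NF-YB in 76 strong regions (8.71%), against 9.16% of the 1724, and NF-YB at least 2 times NF-YC in 96 (11.0%), against 12.9%. Strong regions were thus about as often skewed towards NF-YC as all regions of 3 subunits, and the upper limit of the interval for NF-YB, 13.3%, lay above the value of all. In the weaker regions the shares were 9.64% towards NF-YC and 14.9% (12.6 to 17.5) towards NF-YB. The strong and weaker intervals for NF-YB overlapped.

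The highest NF-YB counts came with high counts of the other subunits. The first, chr11:119960071-119960131, had 248 NF-YA, 351 NF-YB and 189 NF-YC tags. On chr15:76181611-76181671 they were 290, 308 and 145 in the same order, and on chr7:75894251-75894351 239, 305 and 189. Of the NF-YC counts, the second and the third highest were of the same kind, with 263, 181 and 207 tags on chr18:36719991-36720071 and 258, 185 and 191 on chr10:127520171-127520271.

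The regions at the extremes of the ratios show how far the subunits could part. The strongest NF-YB excess lay on chr1:39950111-39950191, with 71 NF-YA tags, 253 NF-YB tags and 26 NF-YC tags, a ratio of scaled NF-YB to NF-YA of 2.95. It was followed by chr15:38230551-38230611 with 72, 214 and 86 tags and by chr9:26838211-26838291 with 84, 237 and 59 tags. All 3 had NF-YA tags low in the strong range, and NF-YB tags above the third quartile of the strong regions. In the first of them NF-YC tags were in the lower 25% of the 1724 regions, and by tags NF-YB alone was high. By fold this region stood above the strong median in every subunit. NF-YA reached 85.15 (median 38.38), NF-YB 251.3 (median 23.84) and NF-YC 31.42 (median 21.45). On chr15:38230551-38230611 and chr9:26838211-26838291 only the NF-YB fold, 30.37 and 39.24, was above its strong median.

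NF-YB was lowest relative to NF-YA on chr17:25410811-25410871, where 132 NF-YA and 46 NF-YC tags stood beside 18 NF-YB tags (ratio 0.11). The 3 centres lay within 20 bp of each other there. On chr2:165373031-165373271 the tags were 118, 18 and 47 in the order NF-YA, NF-YB and NF-YC. On chr8:116158971-116159511 they were 156, 24 and 80, but the NF-YB centre lay 200 bp from that of NF-YA and the NF-YC site was 500 bp wide. The lowest NF-YB count of all strong regions was 17 tags, on chr12:101121591-101121751, beside 81 NF-YA and 74 NF-YC tags. Ratios of NF-YB below 0.25 occurred in 34 strong regions (3.89%, 2.71 to 5.40), against 2.38% of the 1724 and 7 of the 851 weaker ones. The 15 tags needed for an NF-YB site to be listed keep regions of low NF-YA tags from such a ratio. This difference is therefore partly set by the rule.

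NF-YC exceeded NF-YA most on chr3:90279771-90280031, with 134 NF-YA tags, 85 NF-YB tags and 267 NF-YC tags (ratio 2.01). The NF-YA and NF-YC sites were both 260 bp wide there and shared a centre. Next came chr17:46689811-46689871 with 94, 188 and 182 tags, where NF-YB was high as well (ratio 1.66), and chr11:40546991-40547111 with 85, 46 and 159 tags. NF-YC was lowest relative to NF-YA on chr10:94923811-94924091, where 202 NF-YA and 92 NF-YB tags stood beside 25 NF-YC tags and the NF-YC centre lay 170 bp from that of NF-YA. On chr10:95143831-95143911, with 98 NF-YA and 149 NF-YB tags, and on chr2:157981011-157981091, with 100 and 81, NF-YC had 18 tags and its centre lay within 30 bp of NF-YA. Ratios of NF-YC below 0.25 occurred in 8 strong regions (0.916%) and in 0.464% of the 1724, with 0 of the 851 weaker ones. The 14 tags needed for an NF-YC site to be listed keep regions of low NF-YA tags from such a ratio.

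At the top of all 3 lists together, 214 strong regions were in the upper 25% of NF-YA (113 tags or more), NF-YB and NF-YC. That NF-YA limit lies above the threshold of the rule, so all 214 are strong by construction. All 3 centres fell on 1 position in 27 of the 873 strong regions (3.09%) and in 36 of the 1724 (2.09%). At a share close to that of all strong regions, 7 of the 214 were of this kind. They include chr1:182126231-182126271 with 149 NF-YA tags, 156 NF-YB tags and 91 NF-YC tags, chr3:88100951-88100991 with 182, 230 and 82, chr5:139936551-139936591 with 204, 217 and 105, and chr11:105898071-105898111 with 229, 132 and 94. The widest spread among the 214 was on chr7:26539831-26540351, where the highest NF-YB site lay 300 bp and the NF-YC site 180 bp from the highest NF-YA site. That region held 2 NF-YA and 2 NF-YB sites beside a single NF-YC site of 400 bp.

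Sites lay closely together in the strong regions. The NF-YB centre was a median of 20 bp from that of NF-YA (quartiles 10 and 40), and so was the NF-YC centre (10 and 40), against 30 bp for both in the weaker regions (10 and 50). NF-YA and NF-YB centres were within 50 bp in 766 strong regions (87.7%, 85.4 to 89.8), against 84.3% of the 1724 and 80.7% of the weaker regions (77.9 to 83.3). For NF-YA and NF-YC the count was 757 (86.7%, 84.3 to 88.9), against 82.4% and, in the weaker regions, 78.0% (75.1 to 80.8). The intervals of strong and weaker regions did not meet for either pair. For NF-YB and NF-YC it was 699 (80.1%, 77.3 to 82.7), against 79.3% and 78.5% (75.6 to 81.2), with overlapping intervals. The closer spacing of strong regions was therefore seen for distances that involve NF-YA, the subunit that chose them, and was not detectable between the others.

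More of the sites were of the narrowest width. An NF-YA site of 40 bp, the narrowest width in these regions, was found in 574 strong regions (65.8%) and in 38.5% of the weaker ones. For NF-YB the shares were 66.3% and 48.8%, and for NF-YC 53.1% and 35.6%. Sites wider than 200 bp were rarer in the strong regions for NF-YA alone, with 1.83% (1.05 to 2.96) against 5.64% (4.19 to 7.41). For NF-YB the shares were 1.83% and 1.88%, and for NF-YC 3.32% and 3.41%, so no difference was detectable there. Tag counts of all 3 lists differ between the groups as well, and their part in these widths and distances was not tested.

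No side was preferred along the chromosome. The NF-YB centre lay at the higher coordinate in 377 strong regions, at the lower in 360 and on the NF-YA centre in 136. The NF-YC centre lay higher in 358, lower in 382 and on the NF-YA centre in 133. The mean offset from NF-YA was -0.34 bp for NF-YB, and that of NF-YC was -1.18 bp. CCAAT boxes occur in both orientations, and strand was not used here, so an order along the motif would not show in these counts. NF-YB and NF-YC lay on the same side of NF-YA in 380 strong regions (43.5%) and on opposite sides in 251 (28.8%). Over the 1724 regions the shares were 50% and 26.9%. In 242 strong regions (27.7%) NF-YA shared its centre with NF-YB, NF-YC or both. Both offsets are measured from the same NF-YA centre, so an error in that centre enters both. In the weaker regions the counts were 482 on the same side (56.6%), 212 on opposite sides (24.9%) and 157 with a shared NF-YA centre (18.4%).

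**Figure D3:**
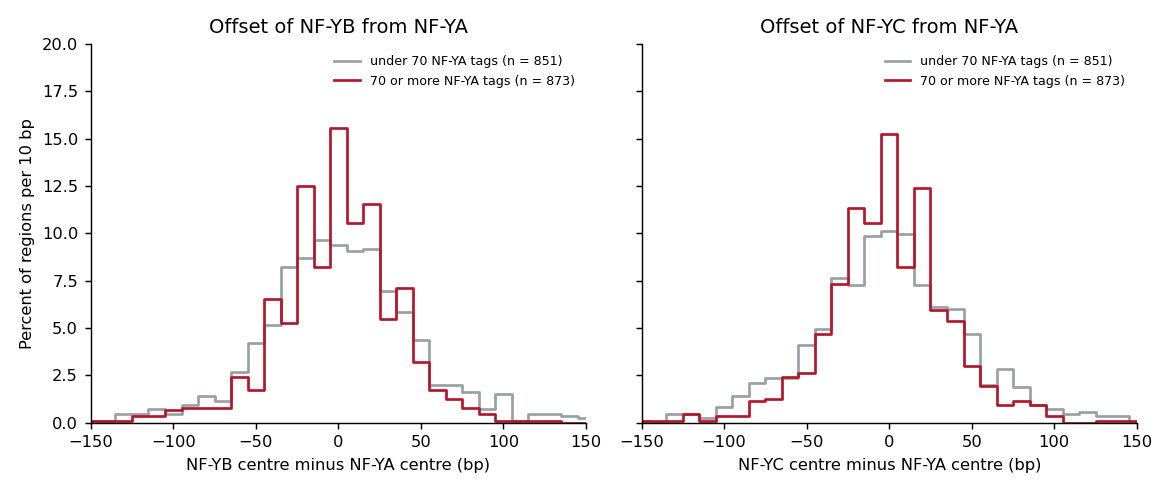
Offset of the NF-YB centre (left) and NF-YC centre (right) from the NF-YA centre in bp, as the percent of regions per 10 bp, for strong (red) and weaker (grey) regions. The red curves are higher at 0 bp, where 15.6% of strong regions fall for NF-YB and 15.2% for NF-YC against 9.40% and 10.1% of weaker ones; 9 strong regions for NF-YB and 11 for NF-YC lie beyond the axis limit of 150 bp.

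The recovered input was higher in the strong regions, a difference that the caller's filter sets in part. The number of input tags behind a site can be recovered from the deposited fold, since tags divided by fold and by the library scale came to a whole number (fold matched within 0.005) at 849 of the 873 NF-YA sites of the strong regions. The recovered number was a median of 4 in the strong regions (quartiles 2 and 5, range 1 to 15) and of 2 in the weaker ones (quartiles 1 and 3, range 1 to 10). A count of 0 cannot be recovered this way. The caller listed sites of a fold of at least 7, so a place with 5 input tags needed 30 NF-YA, 36 NF-YB and 29 NF-YC tags to be listed in all 3. The 198 weaker regions of 14 to 29 NF-YA tags could therefore not reach 5 in the NF-YA list. Of the strong regions, 311 of 849 had 5 or more input tags (36.6%, lower limit 33.4%), against 24.2% of all regions of 3 subunits and 11.0% of the weaker ones (8.91 to 13.4). Folds of the other lists gave the same picture, with 34.5% against 7.54% (21.2% of all regions of 3 subunits) from NF-YB sites and 37.5% against 9.27% (23.7% of all) from NF-YC sites. These are 3 readings of the same input library and not 3 measurements. Among the regions with tags enough for 5 input tags in every list, a limit chosen after seeing the data, 304 of 759 strong regions (40.1%, 36.5 to 43.6) and 68 of 269 weaker ones (25.3%, 20.2 to 30.9) had 5 or more in the NF-YA list. The difference was thus smaller there. Higher input counts remain bounded by tags in that comparison too, and how much of the difference the filter sets was not tested.

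The mean recovered input was 1.81 at 14 to 29 NF-YA tags, 3.33 at 70 to 79 and 5 at 200 to 312. The same filter bounds the input most in the classes of fewest tags, so this order is in part built in. With NF-YA sites of 40 bp alone, 217 of 574 strong regions (37.8%) and 46 of 328 weaker ones had 5 or more input tags. These sites have the same printed width but the same bound by tags. Neither the labels nor the headers state the length over which the caller counted input tags. When the same number of regions was taken by NF-YA fold instead of tags, 12.9% had 5 or more. Fold divides by the input, so that choice itself favours places of low input. The region with most recovered input, 15 tags in every list, was chr11:85166611-85166651, with 198 NF-YA tags, 173 NF-YB tags and 123 NF-YC tags and all 3 centres on 1 position.

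**Figure D4:**
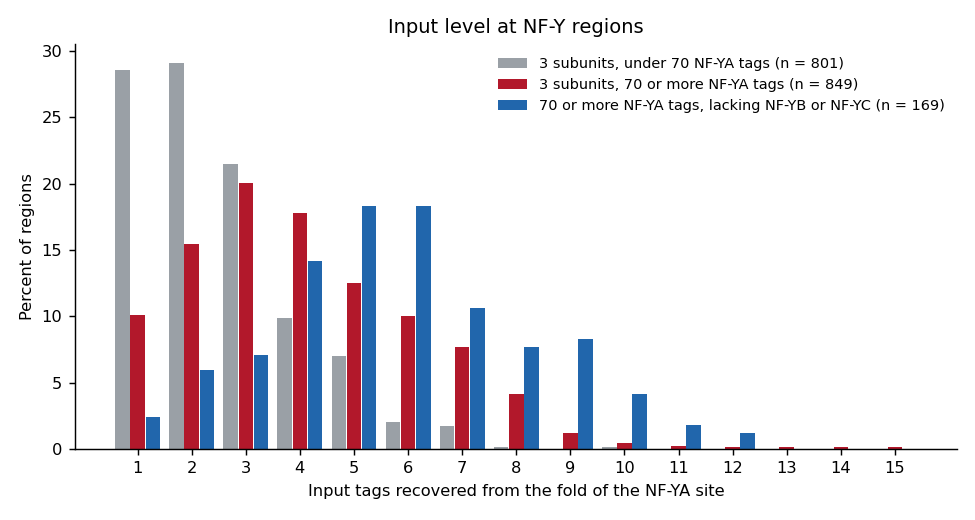
Percent of regions with each number of input tags recovered from the fold of the NF-YA site, for weaker regions of 3 subunits (grey), strong regions (red) and regions of 70 or more NF-YA tags that lacked an NF-YB or NF-YC site (blue). Medians are 2, 4 and 6 input tags.

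Strong NF-YA mostly, but not always, came with both partners. Of the 1054 regions with 70 or more NF-YA tags, 873 held all 3 subunits (82.8%), 85 lacked NF-YB, 53 lacked NF-YC and 43 lacked both. Over all 5350 regions, with or without an NF-YA site, 1724 held all 3. The share with all 3 went from 72.0% (67.7 to 76.1) at 70 to 99 NF-YA tags to 88.6% (84.8 to 91.7) at 100 to 149, 94.2% (88.9 to 97.5) at 150 to 199 and 97.8% (92.4 to 99.7) at 200 or more. The 181 incomplete regions had a median of 85 NF-YA tags (range 70 to 226), against 112 in the strong regions. Their recovered input, not bounded by a site of the missing subunit, was higher, with a median of 6 tags and 5 or more in 119 of 169 (70.4%, 62.9 to 77.2). Under the minimum fold of 7, at 6 input tags a site needed 43 NF-YB or 35 NF-YC tags to be listed, and at 4 input tags 29 or 24. A partner absent from these lists may thus have been present below that limit, and how many of the 181 this touches was not tested.

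Strong regions were spread over all autosomes at a similar share. They made up 51.3% (48.9 to 53.7) of the regions of 3 subunits on the autosomes together, between 42.5% on chromosome 5 (33.5 to 51.9) and 60% on chromosomes 3 (47.6 to 71.5) and 11 (51.8 to 67.8). On the X chromosome they were 6 of 32 (18.8%, 7.21 to 36.4), an interval below that of the autosomes. The 6 had 82 to 102 NF-YA tags, 39 to 115 NF-YB tags and 22 to 68 NF-YC tags. The one highest in both histone-fold subunits, chrX:133275911-133276031, had 86 NF-YA, 115 NF-YB and 68 NF-YC tags, and only this one was above the strong medians in both. The 32 X-linked regions were also lower in the subunits that did not set the threshold, with medians of 37 NF-YB and 23 NF-YC tags against 59 and 45 on autosomes. Their mean recovered input was 2.04 tags against 3.33, within the bound that their lower tags set. Fold, which divides by input, was no lower on the X, with medians of 31.5 against 28.8 for NF-YA, 21.9 against 20.4 for NF-YB and 19.3 against 18.5 for NF-YC. A male line has a single X, and its copy number cannot be told apart here from weaker binding per copy.

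**Figure D5:**
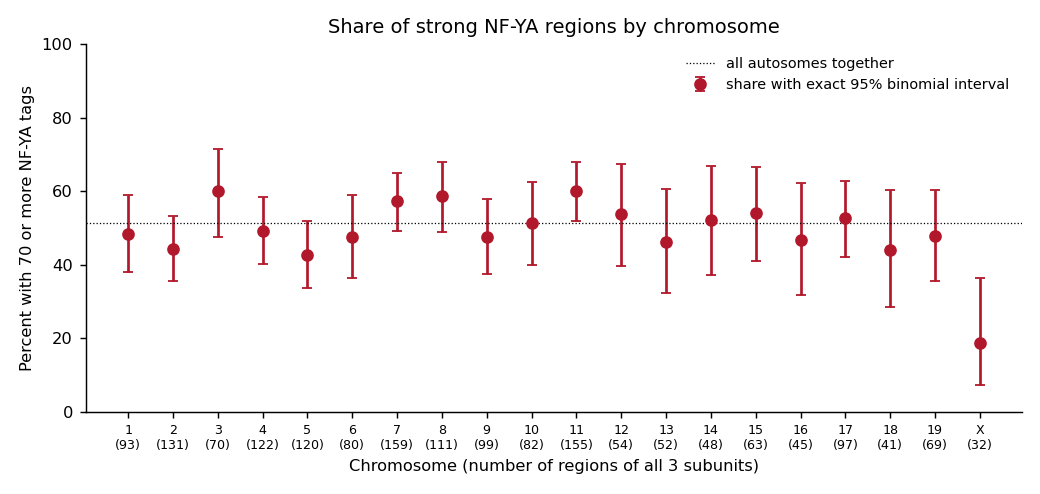
Percent of the regions of 3 subunits that had 70 or more NF-YA tags, by chromosome, with exact 95% binomial intervals and, in brackets, the number of regions; the dotted line is the share over all autosomes, 51.3%. The X chromosome lies lowest at 18.8%, and chromosome Y, with 1 such region, is not shown.

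Neighbourhoods differed little from those of other regions. Another region of any kind lay within 10 kb of 172 strong regions (19.7%, 17.1 to 22.5), against 17.8% of all 5350 regions and 16.8% of the weaker ones (14.3 to 19.5). Within 1 kb it was 62 (7.10%, 5.49 to 9.01), against 5.68% of all regions. The nearest region within 10 kb was itself strong in 32 of the 172 cases (18.6%), while strong regions were 16.3% of all regions. Within 50 kb it was 451 (51.7%, 48.3 to 55.0), against 47.9% of all regions and 47.7% of the weaker ones. In 53 strong regions (6.07%) no other region lay within 500 kb, against 7.85% of all. These shares were within a few points of the background.

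For the 62 strong regions with a neighbour within 1 kb, the nearest was itself strong in 12 (19.4%), near the 16.3% of all regions. Pairs of strong regions within 1 kb numbered 6, and those within 10 kb 19. The closest lay on chromosome 14, with centres 347 bp apart: 56179271 to 56179451 had 78 NF-YA, 74 NF-YB and 47 NF-YC tags, and 56179651 to 56179731 had 138, 183 and 75. The pair on chromosome 9, also 347 bp apart, was uneven in NF-YB alone. Its first region, 21760111 to 21760171, had 117 NF-YA, 140 NF-YB and 60 NF-YC tags, and its second, 21760451 to 21760551, had 104, 29 and 54. The pair on chromosome 4, 373 bp apart, was closer to even, with 133, 111 and 56 tags at 117852271 to 117852391 and 128, 82 and 68 at 117852631 to 117852791.

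More than 1 site of a list occurred in 12 strong regions (1.37%, 0.71 to 2.39) and 3 weaker ones (0.35%, 0.07 to 1.03), against 0.87% of the 1724. The intervals overlapped. On chr5:138069911-138070311, for example, 1 NF-YA site of 259 tags lay with 2 NF-YB sites, the higher of which had 141 tags, and 1 NF-YC site of 111. In the 3 windows of 100 kb on chromosome 13 that held most NF-Y regions, 6 of 30 regions were strong (20%). Strong regions were 16.3% of all regions and 24 of the 203 on the whole of chromosome 13. Among regions of 3 subunits they were 6 of 14 in the windows (42.9%), against 24 of 52 on chromosome 13 (46.2%). These windows were chosen for their density, and 6 strong regions are too few to place their share near or above the background. The window from 23600001 to 23700000 held 3, with NF-YA tags of 95 to 152, NF-YB tags of 130 to 223 and NF-YC tags of 67 to 109. The window from 21800001 to 21900000 held 2, which had 38 and 42 NF-YB tags beside 108 and 97 NF-YA tags.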

How the data were processed

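The deposited site lists of 3 ChIP-seq libraries, 1 for each NF-Y subunit, were analysed. The submitters' processing notes name Bowtie and the build mm9. Sites were called per library against 1 input library with SISSRs 1.4, at an e-value of 10, a p-value threshold of 0.001 and a scanning window of 20 bp, per the file headers. The headers also give 1 tag kept per position, which limits the tags a site can reach. The deposited tag counts are whole, unnormalized tags per site, and the deposited fold is the ratio of these to scaled input tags. The deposited p-values were not used. A site needed 14 tags (15 for NF-YB).

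Sites were linked at 200 bp, and a region took the highest site of each list. Input was recovered as tags divided by fold and by the ratio of kept to input tags (0.834, 1.01 and 0.827 for NF-YA, NF-YB and NF-YC). Linking and recovery were tested on simulated data. Named regions are the extremes of tags, ratios and centre distances, those at the threshold, the closest pairs and those of several sites. The regions, measures and rule were chosen with earlier results of these data known. Alternatives covered linking, threshold, fold, width, multiple sites and neighbour distance. The scientific stack was Python 3.11.15 with pandas 2.3.3, scipy 1.17.1, numpy 2.4.6, and for plots matplotlib 3.10.9.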

Additional observations from a re-analysis of the deposited data

How the results depend on the processing

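Of 108 alternative values, 89 stayed within the 95% interval of the reported value, or within 1.5 times a reported count. Among the 89, the number of regions taken by NF-YA fold was set to 873 in advance. Leaving out the X chromosome removed only 6 strong regions, so it could move these values little. A minimum of 60 NF-YA tags gave a median of 60 NF-YC tags and upper 25% shares of 39.5% for NF-YB and 39.9% for NF-YC. A minimum of 80 gave medians of 91 NF-YB and 69 NF-YC tags and shares of 47.5% and 50.2%. Taking the regions by NF-YA fold gave medians of 70 and 52 tags, shares of 35.1% and 34.5%, and 12.9% with 5 or more input tags. NF-YA sites of 40 bp alone, an alternative chosen after seeing the data, left 574 regions with shares of 36.4% and 37.1%. Their medians, 86.5 NF-YB and 66 NF-YC tags, stayed within the intervals. An upper 25% share is bounded by how many of the ranked regions are strong, which differs between these settings. Shifts in the shares therefore do not by themselves show a weaker or stronger level of NF-YB or NF-YC. Linking at 500 bp gave 15.8% with another region within 10 kb, and counting neighbours within 50 kb or 1 kb gave 51.7% or 7.10%. Linking at 100 bp, leaving out wide sites, regions of several sites or, chosen after seeing the data, the X chromosome, and summing tags moved none of these values beyond its bound. The measure of input tags was also chosen after seeing the data, and its share was 40.1% in regions with tags enough for 5 input tags in every list. Shares for CCAAT boxes and gene starts were not run, since sequence and annotation of mm9 were not used here. No paired analysis was possible because there were no replicates to pair, nor any to leave out. Depth limits every list at 14 or 15 tags.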
